A study of Mus musculus with 6 samples.

Results

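Against input chromatin, 9 genes that act in muscle, in neurons or in gene regulation carried ZBTB43 ChIP–seq peaks on protein-coding exons in mouse prospermatogonia. They were Acta1, Myh1, Myh4, Chrna4, Cacna1d, Atp2b2, Adgrl1, Bcl11b and Zbtb43 itself. Only Acta1, Myh1 and Adgrl1 also had such a peak against IgG, the control of the peaks that the study tabulated. The peaks were chosen by 8 genomic windows around the 9 genes. The windows were selected on the measured peaks of the same lists, so presence and score describe the members and are not tested. Of 3588 listed peaks in 4 peak lists, 26 lay in the windows. The single-gene windows were 1.1 kb to 2.5 kb wide, and the window of the myosin cluster was 330 kb wide and also took in 1 peak each at Myh8 and Myh13.

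ZBTB43 is a zinc finger protein whose binding in the fetal male germ line the study mapped by chromatin immunoprecipitation and sequencing. All 6 libraries came from wild type male fetuses at 15.5 dpc, labelled B6;CBA-Tg(Pou5f1-EGFP)2Mnn/J and obtained per the study's methods from C57BL/6J or transgenic mothers and from fathers with the Oct4-EGFP transgene. EGFP-positive germ cells (prospermatogonia) of pooled fetuses were sorted by flow cytometry. The ZBTB43 antibody was used on 491K and on 100K cells (K, kilo), a non-specific IgG on 415K and on 100K cells, and input chromatin was sequenced from 491K and from 100K cells. Each of the 6 groups held 1 library, so no value has a replicate error and no difference between lists was tested. Each list sets 1 ZBTB43 library against 1 control, and both 491K lists use the same ZBTB43 library, as do both 100K lists. The lists hold no expression values, so the labelled cell type could not be checked against marker genes.

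The genes have well-known roles. Myh1 and Myh4 encode fast skeletal myosin heavy chains, the motors of the thick filament, and stand in a tandem cluster with Myh8 (perinatal myosin) and Myh13 (extraocular myosin). Acta1 encodes the actin of the skeletal muscle thin filament. Chrna4 is a subunit of neuronal nicotinic acetylcholine receptors, Cacna1d the pore of an L-type calcium channel, Atp2b2 a calcium pump of the plasma membrane and Adgrl1 (latrophilin) an adhesion receptor of the synapse. Bcl11b is a zinc finger transcription factor of T cells and neurons. Runs in which purines and pyrimidines alternate at every base, purine–pyrimidine repeats (PPRs), can adopt the left-handed Z-DNA form. The study mapped ZBTB43 binding across the genome and reported that the protein binds specifically at PPRs in prospermatogonia.

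To show what DNA the member peaks cover, 3 peak sequences are given with the longest run of alternating purines and pyrimidines in capitals. They were read from GRCm38.p6, which corresponds to mm10, 5′ to 3′ along the strand of the gene. The Myh1 peak of the input-controlled 100K list spanned chr11:67207422-67207546 on the plus strand and its longest run was 7 bp. The Myh4 peak of the same list spanned chr11:67254702-67254852, plus strand, with a run of 6 bp. The higher-scoring Bcl11b peak of the input-controlled 491K list spanned chr12:107915449-107915708, minus strand, and its run of 14 bp was the longest of any member.
Myh1: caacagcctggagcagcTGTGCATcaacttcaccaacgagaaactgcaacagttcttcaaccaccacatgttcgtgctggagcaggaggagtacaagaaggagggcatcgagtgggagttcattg
Myh4: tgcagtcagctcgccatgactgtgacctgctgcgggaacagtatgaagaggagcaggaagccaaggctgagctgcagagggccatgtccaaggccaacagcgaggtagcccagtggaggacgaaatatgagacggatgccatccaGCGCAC
Bcl11b: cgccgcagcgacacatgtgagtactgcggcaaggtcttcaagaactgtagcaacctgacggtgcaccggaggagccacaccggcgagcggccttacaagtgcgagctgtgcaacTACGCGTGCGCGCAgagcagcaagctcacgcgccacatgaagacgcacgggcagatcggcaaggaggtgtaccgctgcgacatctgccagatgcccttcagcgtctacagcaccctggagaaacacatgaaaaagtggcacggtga

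For contrast, the intronic tract of a peak that is no member is shown. Among peaks of the input-controlled 491K list that touch coding sequence and whose longest run is a tract of at most 70 bp, the one at Spg11 had the highest score, 2414. Of its 1196 bp, 8.36% were coding. Its 31-bp run is in capitals with 15 bp on each side, at chr2:122080115-122080175, minus strand. The run is a repeat of GT dinucleotides with a single interruption, a kind of sequence that none of the member peaks above held.
Spg11: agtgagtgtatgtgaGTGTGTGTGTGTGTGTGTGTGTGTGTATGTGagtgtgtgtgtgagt

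The input-controlled 491K list held 20 of the 26 member peaks, and each of the 9 genes had at least 1 of them. The IgG-controlled 491K list, of the 897 peaks that the study tabulated, held 3, at Myh1, Acta1 and Adgrl1, and none at the other genes. The input-controlled 100K list held 3, at Myh1, Myh4 and Zbtb43, and the IgG-controlled 100K list held none among its 18 peaks. No gene had a member peak in more than 3 lists, and Myh1 was the only one with peaks in 3. Every member peak of another list overlapped a member peak of the input-controlled 491K list. The strength of a peak is given as the authors' score, a whole number taken to be −log10 of the MACS2 q-value multiplied by 10, and scores are compared within a list.

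**Figure D1:**
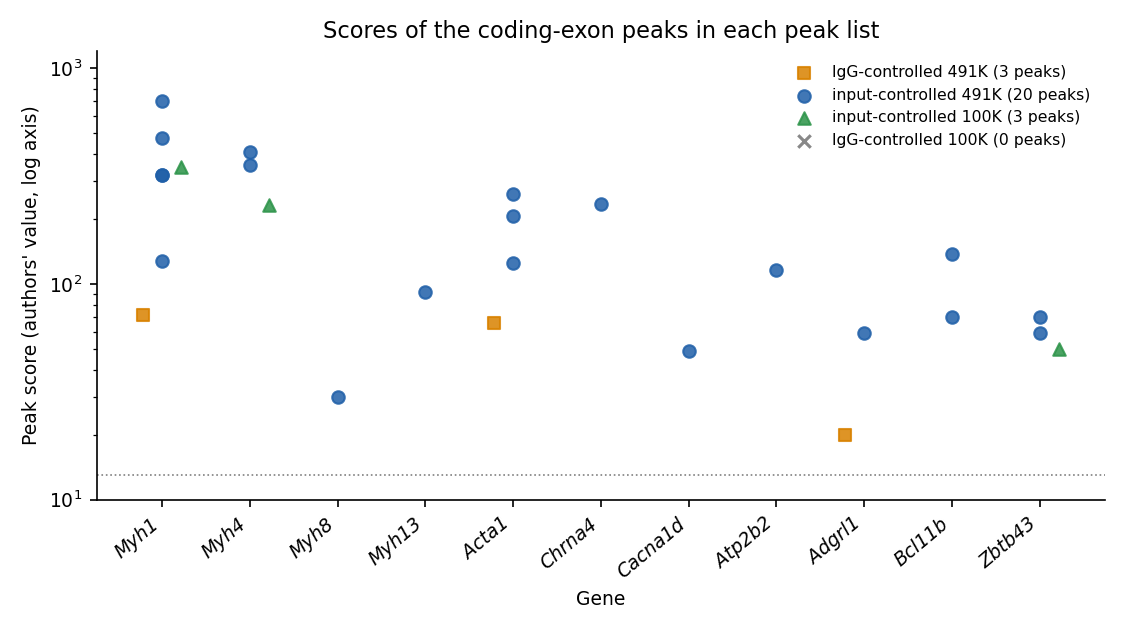
Peak scores (log axis) of the 26 member peaks by gene, with 1 symbol per peak and a colour for each peak list; the dotted line marks a score of 13, the lowest in the lists. Myh1 holds the highest score, 701, and the IgG-controlled 491K list and the input-controlled 100K list each add 3 peaks.

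Within the input-controlled 491K list the member scores ran from 30 to 701 with a median of 132, against a median of 196 over all 2043 peaks, whose scores ran from 13 to 44423. The 20 members were spread over the 4 score quartiles of the list as 6, 5, 7 and 2, from the lowest to the highest quartile. The median width of the members was 192 bp, and that of all peaks was 181 bp.

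Myh1 had the most peaks and the highest score. Its 5 peaks in the input-controlled 491K list scored, along the gene, 318, 318, 701, 128 and 471. The peak of 701 (chr11:67207422-67207580), in exon 15 of 40, ranked 318 of 2043. In the input-controlled 100K list Myh1 kept 1 peak, with a score of 348, which ranked 138 of 630. This peak began at the same base as the 701 peak and shared 125 bp with it, 78.6% of the wider peak. In the IgG-controlled 491K list Myh1 had 1 peak with a score of 72, ranked 611 of 897. It lay inside the first of the 318 peaks, over exons 4 and 5, so the Myh1 exon listed at both cell numbers was a different one from the exons listed against both controls.

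Myh4 had peaks in both input-controlled lists. With 491K cells, the peak in exon 15 of 39 (chr11:67248509-67248676) scored 408 and that in exon 29 (chr11:67254678-67254860) scored 356. With 100K cells the exon 29 peak scored 231, ranked 205 of 630 and lay wholly within its 491K counterpart. The higher-scoring exon 15 peak had no counterpart with 100K cells. Neither Myh4 peak was listed against IgG.

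The other myosins of the window scored lower. The Myh13 peak, in exon 35 of 39, scored 92 and the Myh8 peak, in exon 16 of 40, scored 30, the lowest of the 20. Both were in the input-controlled 491K list alone.

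Acta1 had 3 peaks in the input-controlled 491K list, which scored 260 over exons 2 and 3, 205 over exons 4 and 5 (chr8:123892549-123892960) and 125 in exon 6 (chr8:123892269-123892414). Between them they touched 5 of the 6 coding exons, the highest share among the genes with several coding exons. The IgG-controlled 491K list held 1 Acta1 peak, of 144 bp with a score of 66, inside the first of these and wholly in exon 3. No Acta1 peak was listed with 100K cells under either control.

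**Figure D2:**
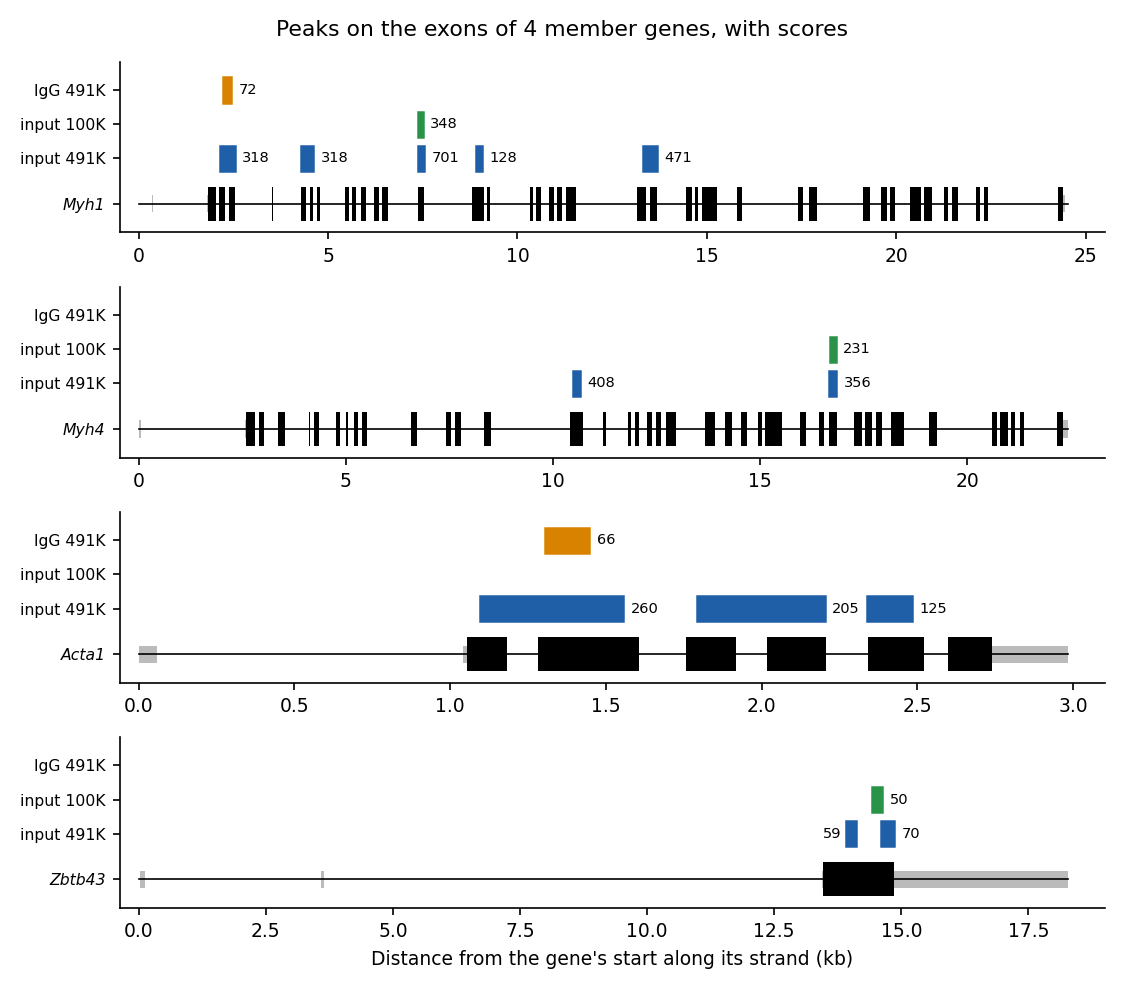
Maps of Myh1, Myh4, Acta1 and Zbtb43 with distance from the gene's start in kb along its strand; black boxes are coding exons, grey boxes untranslated exons, and coloured boxes are peaks with their scores. Every peak overlaps a coding exon, and those over exon pairs in Myh1 and Acta1 also hold the intron between them. The Zbtb43 peaks lie on its 1 coding exon.

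The channel, pump and receptor genes each had 1 member peak in the input-controlled 491K list. The Chrna4 peak, in exon 5 of 6, scored 233 and ranked 897 of 2043. Its codons 261 to 336 of 629 include membrane-spanning segments that line and surround the pore. The Atp2b2 peak (chr6:113762784-113762923), in exon 15 of 20, scored 116. The Cacna1d peak (chr14:30099041-30099169), in exon 27 of 47, scored 49 and ranked 1825. The Adgrl1 peak (chr8:83929808-83930025), in exon 5 of 23, scored 59 and was the only one of these 4 that was also listed against IgG, where 197 bp of it scored 20. No peak of these 4 genes was listed with 100K cells.

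Cacna1d was the only member gene with further peaks outside its window. In the input-controlled 491K list 2 such peaks scored 153 and 59, and the latter recurred against IgG with the same bounds and a score of 56. These peaks held no coding sequence and had alternating runs of 51 bp and 275 bp, whereas the exon 27 peak had a longest run of 5 bp.

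Bcl11b had 2 peaks, with scores of 137 and 70, both in exon 4, its last, and both in the input-controlled 491K list alone. They covered codons 783 to 869 and 429 to 482 of 884, which encode zinc fingers. The 2 stretches resemble each other, with 81.6% identity over 147 bp.

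Zbtb43, the gene of the immunoprecipitated protein, had 2 peaks in the input-controlled 491K list with scores of 70 and 59 and 1 in the input-controlled 100K list with a score of 50. All 3 lay in exon 3, which holds the whole coding sequence. The 491K peaks (chr2:33453699-33453954 and chr2:33454445-33454645) covered codons 383 to 467 and 152 to 219 of 467, and the 100K peak covered codons 321 to 389. The 100K peak therefore lay mostly between the 491K peaks and shared 19 bp with the first of them, 9.36% of its own width, with centres 210 bp apart. Its sequence, chr2:33453936-33454138 on the minus strand, is given with the shared bases in capitals, because the overlap between both cell numbers at this gene rests on them.
Zbtb43: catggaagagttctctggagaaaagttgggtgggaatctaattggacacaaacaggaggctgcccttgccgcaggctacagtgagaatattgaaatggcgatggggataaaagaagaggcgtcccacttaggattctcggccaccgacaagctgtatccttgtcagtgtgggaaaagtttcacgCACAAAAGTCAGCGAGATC

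Recurrence of the members across lists was set beside that of all peaks. Of the 20 members of the input-controlled 491K list, 3 (15.0%) overlapped an IgG-controlled 491K peak, whereas 43.0% of all 2043 peaks did. Likewise, 3 (15.0%) overlapped an input-controlled 100K peak, against 29.6% of all peaks, and none overlapped an IgG-controlled 100K peak, against 0.881%. Among the 1653 peaks that are no members and scored between 30 and 701, 37.8% recurred against IgG and 19.5% with 100K cells. The members were chosen with these lists in view, so nothing is read from the differences. Over the whole list, recurrence with 100K cells was 1.75%, 10.2%, 29.6% and 77.5% from the lowest to the highest score quartile. Of the members in these quartiles, 1 of 6, 0 of 5, 1 of 7 and 1 of 2 recurred.

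The label of these peaks as coding held in the annotation. All 26 overlapped coding sequence. In the input-controlled 491K list 20 of 20 did, where 4.36% of all peaks did, and for all 20 at least 50% of the width was coding, where this was so for 3.92% of all peaks. In the IgG-controlled 491K list all 3 members overlapped coding sequence, against 1.45% of that list, although the Myh1 peak was 47.5% coding and held 115 bp of intron. By the stricter rule that the centre of the peak be coding, 16 of 20 members of the input-controlled 491K list and 2 of 3 of the IgG-controlled 491K list were coding. With 100K cells and input as control, the 3 members were the only 3 coding peaks, 0.476% of that list. The windows were drawn on coding peaks, so these counts describe the choice.

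The peaks reached little past the outer ends of their exons, and the windows had been drawn on coding peaks. Of the 20 members of the input-controlled 491K list, 11 lay wholly within coding sequence. Of the 60 other mostly coding peaks of this list 44 did, and of all 2043 peaks 55 did. Lying wholly within coding sequence was therefore not particular to the members. Among the 20 members, 15 touched a single exon. The other 5 spanned an adjacent pair of exons together with the short intron between them, of 115 bp, 103 bp and 117 bp in Myh1 and 97 bp and 98 bp in Acta1. Of the 40 outer ends of the peaks, 6 passed the end of an exon, in 5 peaks and by 6 bp at most. In Myh1 the peak over exons 7 and 8 passed the outer end of each exon by 2 bp, and the exon 15 peak stopped 2 bp and 10 bp short of the exon's ends. In the long exons of Bcl11b and Zbtb43 the peaks ended far from the exon's ends, and the Zbtb43 peak that began at codon 383 ended 1 base beyond the last codon. GC content of the 20 peaks ran from 42.6% to 61.5%, with a median of 55.8% against 49.4% over all peaks. The median of the 60 other mostly coding peaks was 58.2%, so a GC content above that of all peaks was not particular to the members. The Acta1 peak over exons 4 and 5 held 24 CpG dinucleotides and the printed Bcl11b peak 23, the most among the members.

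None of the 26 member peaks held an alternating tract, defined as a run of at least 20 bp. In the input-controlled 491K list the longest runs of the members were 4 bp to 14 bp with a median of 7 bp, whereas 77.1% of all peaks held a tract and the median run was 43 bp. The 60 other peaks of this list with at least 50% coding sequence resembled the members in this respect, with runs of 4 bp to 16 bp and no tract. Of the 9 peaks with some but less coding sequence, 6 held a tract, as in the Spg11 sequence above.

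**Figure D3:**
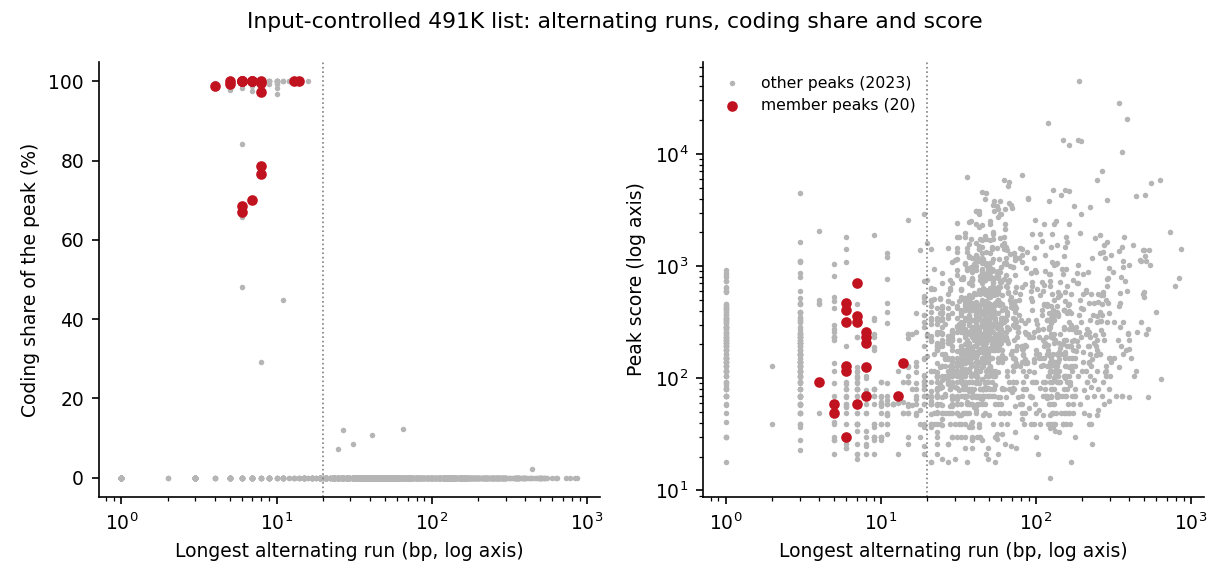
Longest alternating run (bp, log axis) of each peak of the input-controlled 491K list against its coding share in percent (left) and its score on a log axis (right), with the 20 members in red and all other peaks in grey; the dotted line marks 20 bp. All members lie left of the line, at 4 bp to 14 bp.

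Many of the exons have close relatives elsewhere in the genome. Of the 20 members of the input-controlled 491K list, 14 matched at least 1 other stretch with 80% identity or more over 50% or more of the peak, and 9 matched one with 90% identity over 80% of the peak. For the 60 other mostly coding peaks the corresponding numbers were 39 and 12. Over the 14 member peaks there were 80 such stretches, counted separately for each peak, and 10 of them carried a peak in the same list. The same stretch could match several member peaks. Among the peaks at these stretches, only those at Myh7 and Myh9 were not members themselves. The authors kept alignments with a mapping quality of at least 30, so reads that fit several copies equally were dropped. How far reads from one copy reached another was not tested.

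The relatives with a peak of their own were myosin and Bcl11b stretches. The highest-scoring member, Myh1 exon 15, matched 12 other myosin stretches. Those of Myh7, with 89.3% identity, and Myh9, with 84.6%, carried peaks with scores of 81 and 92. The closest one, in Myh13 with 97.5%, carried none, nor did that of Myh4 with 95.6%. The peaks in Myh1 exon 16, Myh4 exon 15 and Myh8 exon 16 also lay on matching stretches. The Myh1 peak over exons 23 and 24 matched Myh2 with 98.9% identity over all of its 372 bp, and no peak was listed there. Chrna4 matched Chrna2 with 90.2% identity, Atp2b2 matched Atp2b3 and Atp2b4 with 88.6% each and Cacna1d matched Cacna1c and Cacna1s with 91.5% each, and none of these relatives had a peak at the match. The widest Acta1 peak matched 16 stretches, the closest in Actc1 with 91.4%, and none had a peak. The IgG-controlled Acta1 peak, which lay inside it, matched Actb with 95.8% identity over all of its 144 bp. The peaks of Adgrl1 and Zbtb43, both Myh1 peaks with a score of 318 and the Acta1 peak of 205 had no match of this kind. Several fell just short of the limits. The first of these Myh1 peaks matched Myh13 with 78.6% identity over 99.7% of its width, and the second matched Myh8 with 79.9% over 100%. Adgrl1 matched Adgrl2 with 78.4% over 100%, and the Acta1 peak matched Actg2 with 86.3% over 46.1%. The closest match of the Zbtb43 peaks had 69.2% identity.

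**Figure D4:**
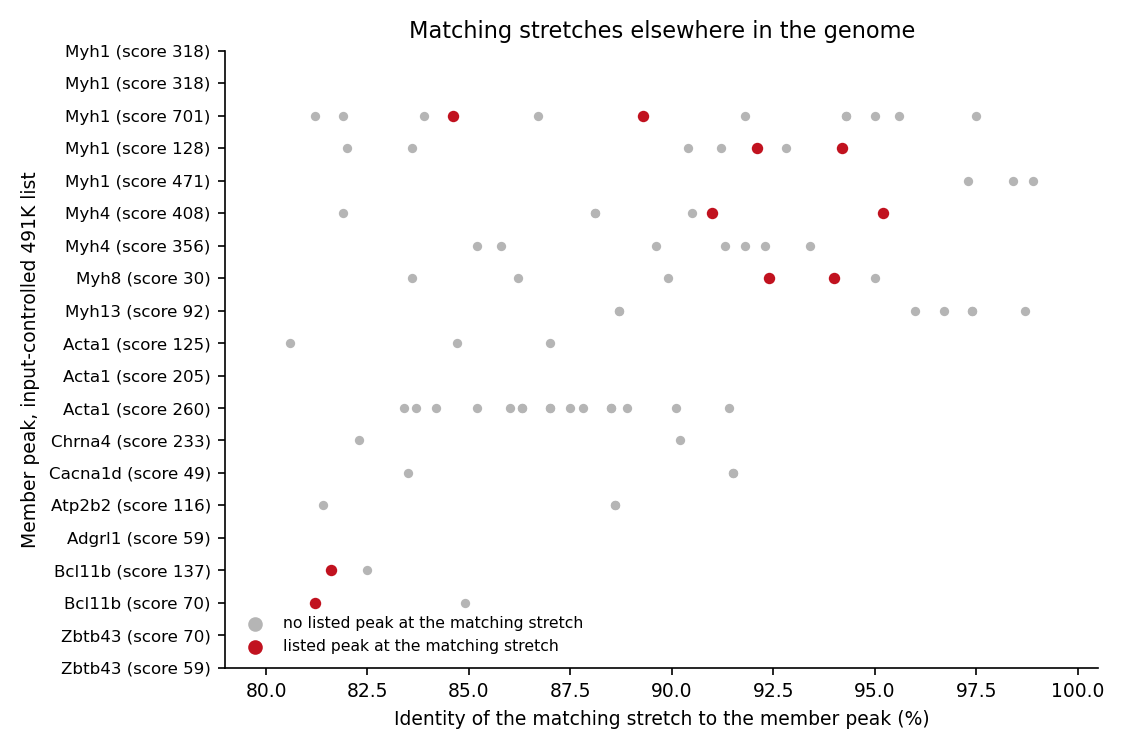
Identity in percent of every stretch elsewhere in the genome that matched a member peak of the input-controlled 491K list, with 1 row per member peak and 1 point per stretch; red points carry a listed peak themselves. Red points stand in 6 rows, 4 of myosin peaks and 2 of Bcl11b.

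To show how alike the matching myosin exons are, the 93 bp common to the peaks in Myh1 exon 16 (chr11:67208991-67209083), Myh4 exon 15 (chr11:67248584-67248676) and Myh8 exon 16 (chr11:67289665-67289757) are given, plus strand, with each base unlike Myh1 in capitals. Myh4 differed from Myh1 at 6 bases and Myh8 at 8, so 93.5% and 91.4% of the bases were the same. The scores of these peaks were 128 for Myh1, 408 for Myh4 and 30 for Myh8.
Myh1: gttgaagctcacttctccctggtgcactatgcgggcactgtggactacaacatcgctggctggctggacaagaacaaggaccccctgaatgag
Myh4: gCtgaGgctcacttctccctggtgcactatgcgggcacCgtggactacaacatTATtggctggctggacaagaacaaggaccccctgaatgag
Myh8: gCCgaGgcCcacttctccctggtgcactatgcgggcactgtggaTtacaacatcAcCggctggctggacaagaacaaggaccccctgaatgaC

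The gene families of the members were counted beside all 21951 protein-coding genes, of which 3.65% had a peak in the input-controlled 491K list and 0.346% a coding one. The families were picked for the members, so each but the contraction genes holds at least 1 gene with a coding peak by choice. The median gene length was 17.4 kb over all protein-coding genes and 119 kb over those with a peak. Of 10 skeletal and cardiac myosin heavy chain genes, 6 had a coding peak in the input-controlled 491K list. Besides Myh1, Myh4, Myh8 and Myh13 these were the cardiac myosins Myh6, with a score of 401 in exon 26 of 39, and Myh7, with 233 in exon 26 of 41 and 81 in exon 16. Of 6 actin genes Acta1 alone had a peak. Of 22 further genes of muscle contraction, such as troponins and titin, Tnnt1 alone had a peak, and it was not coding. Chrna4 was the 1 gene with a peak among 16 nicotinic receptor subunits, Atp2b2 the 1 among 4 plasma membrane calcium pumps and Bcl11b the 1 of both BCL11 factors. Of 10 calcium channel genes 4 had a peak and of 4 latrophilins 3 had one, with Cacna1d and Adgrl1 the only coding ones. The genes of both families are long, with medians of 135 kb and 141 kb, and the part of length in these counts was not tested. Of 41 ZBTB genes 3 had a peak, Zbtb43, Zbtb46 and Zbtb7c, and the Zbtb43 peaks were the only coding ones.

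Other genes had peaks of the same kind, and the median score of the 60 mostly coding peaks outside the windows was 59, compared with 132 for the members. By score, after Myh6 and Myh7, these were Tuba4a (233), an alpha-tubulin, Kcnh2 (179), a cardiac potassium channel, Grik3 (125), a kainate receptor subunit, Tubb3 (116), the neuronal beta-tubulin, and Unc13a (104), a priming factor of synaptic vesicles. Myh9 (a non-muscle myosin), Hist4h4 (a histone H4), Pde4a (a cyclic AMP phosphodiesterase) and Nlgn3 (a neuroligin of the synapse) followed with 92 each, and Hist1h2bm, a histone H2B, with 88. Histones and tubulins, like the myosins and actins, are families of similar genes, and sharing of reads between copies was not tested for any of them. Of the 60, 4 (6.67%) were also listed against IgG with 491K cells and 0 with 100K cells against input, where 3 of 20 members (15.0%) were found in each case. Over all 2043 peaks these shares were 43.0% and 29.6%. The members were chosen with these lists in view, so nothing is read from these differences. Scores of members and of other coding peaks overlapped: Chrna4, Tuba4a and Myh7 shared a score of 233, and Grik3 and the exon 6 peak of Acta1 shared 125.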

How the data were processed

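ChIP–seq libraries of 15.5 dpc prospermatogonia were made with ZBTB43 antibody, IgG or no antibody (input), with 1 library in each of 6 groups, assigned by title. By the study's methods and the submitters' processing notes, reads were trimmed (Trim Galore 0.6.0), aligned to mm10 (BWA 0.7.17), marked for duplicates, and filtered for proper pairs and a mapping quality of at least 30. MACS2 2.2.7.1 called peaks at a q-value of 0.05 for every ZBTB43 library with IgG or input as the control, without pooling, and blacklisted peaks were removed. The 4 deposited lists hold a position and a score for each peak. The deposited score was taken to be −log10 of the q-value multiplied by 10, because the lowest score, 13, fits the threshold. It grows with depth as well as enrichment, and the lists do not hold the reads kept per library, for which the study states only a common minimum of reads sequenced.

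Peaks overlapping 8 windows by at least 1 bp were members. The members, windows and gene families were chosen with earlier results of these data known. Exons were those of GENCODE M21, using 1 principal transcript per gene for exon and codon numbers and all transcripts for coding share. Sequence came from GRCm38.p6, and matches were found with blastn 2.17.0 (e-value 1e-05). Python 3.11.15, NumPy 2.4.6, pysam 0.24.0, samtools 1.23.1 and Matplotlib 3.10.9 were used. The tract search was tested on simulated sequence. Named genes were the 9 members, family genes with a coding peak, and up to 10 other genes with a mostly coding peak in order of score. No test was run, since each group held 1 library. Alternatives tried were a score of at least 20 (q-value 0.01), whole genes in place of windows, other overlap and coding rules, other tract lengths and a looser match. Signal tracks were not used here, and some peak sequences are not reported here.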

Additional observations from a re-analysis of the deposited data

How the results depend on the processing

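Of 46 values under alternative settings, 43 stayed within 1.5 times the reported count. The values for the IgG-controlled 100K list, which held no member, were 0 under every setting. A drop from 3 to 2 also counted as within this range. In the input-controlled 491K list, members with an alternating run numbered 2 with a minimum of 12 bp (both at Bcl11b) and 1 when peaks were extended by 200 bp on each side (the Myh1 exon 15 peak, run of 25 bp), against 0 as reported and 0 with a minimum of 30 bp. Members with a copy elsewhere numbered 14 with 80% identity over 50% of the peak, against 9. With a reciprocal overlap of 50%, 2 of 3 members recurred in the IgG-controlled 491K list and 2 of 3 in the input-controlled 100K list. The one lost in the latter was Zbtb43, which was also lost when centres had to lie within 100 bp. Whole genes in place of windows dropped Myh8 and Myh13 and added 2 intronic Cacna1d peaks, again 20 in the input-controlled 491K list. No paired analysis was possible because there was a single library per group and no test was run. The number of reads behind each list cannot be read from the lists, so a peak missing from a list, above all the 100K lists, may lie below detection. By the study's methods, cells of the larger samples were crosslinked from combined frozen batches, and those of the 100K samples before freezing. Library, cell number and this handling cannot be told apart.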

Other observations

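In the input-controlled 491K list, 66 genes had a mostly coding peak and 10 had 2 or more. Of these 10, 5 were members (Acta1, Myh1, Myh4, Bcl11b and Zbtb43). The others, named after their values were seen, were Tuba4a (scores of 233 and 90), Tubb3 (116 and 113), Myh7 (233 and 81), Kcnh1 (59 and 59), a voltage-gated potassium channel, and Scn8a (39 and 28), a neuronal sodium channel. Both Tubb3 peaks and both Tuba4a peaks lay in exon 4 of 4.

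The 4 mostly coding peaks outside the windows that were also listed against IgG lay at Kcnh2, Nlgn3, Rasgrf2 and Dyrk2, with IgG-controlled scores of 38, 24, 35 and 19. All 4 IgG-controlled peaks lay wholly in coding sequence, with longest alternating runs of 7 bp to 9 bp.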
